A study of Mus musculus with 4 samples.

Results

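Bone morphogenetic protein 4 (BMP4) signalling is described here through 10 genes: the ligand gene Bmp4, the type I receptor genes Bmpr1a and Bmpr1b, the inhibitory Smad genes Smad6 and Smad7, and the target genes Id1, Id2, Id3, Id4 and Atoh8. They were taken by gene name from a table of 48178 genes, in which each of the 10 had a single row. RNA had been sequenced from hippocampal cells of newborn C57BL/6 mice (postnatal day 0), grown as neurospheres with EGF and FGF-2 (each at 20 ng/ml) and collected on day 7 of culture. Neurospheres are floating clusters of neural progenitors and the cells they give rise to. There were 2 control and 2 FGF13Aoe libraries. The genotype of the controls was hGFAPCre+, ROSA26FGF13A +/+, read here as wild type at ROSA26 because the series names them as controls. That of FGF13Aoe was hGFAPCre+, ROSA26FGF13A LSL/+, that is, an FGF13A cassette behind a Cre-removable stop on 1 allele. Per the labels Cre came from hGFAPCre in both groups, a transgene whose human GFAP promoter works in progenitors and astrocytes of the brain. FGF13 is an intracellular FGF family protein that binds sodium channels and microtubules. Cells of a mouse were described as plated into 2 wells, and nothing in the labels ties the replicates to different animals. The spread behind each p-value is therefore that between libraries, which may be technical in part. The main test, limma, moves the spread of each gene toward that of genes of similar level. Each limma p-value and SE given here thus draws on other genes as well as on the gene's own libraries. Sex-linked transcripts, given below, set the 2 controls apart, and control replicate 2 held both male and female RNA.

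BMP ligands bind type I and type II receptor kinases, and the activated type I receptor phosphorylates the Smad proteins encoded by Smad1, Smad5 and Smad9. These enter the nucleus with SMAD4 and raise transcription of target genes, among them the Id genes and the feedback inhibitors Smad6 and Smad7. ID proteins hold a helix-loop-helix domain without a DNA-binding region, so they capture the E proteins that proneural factors need as partners. In the forebrain BMP signalling is known for favouring astrocytes over neurons and oligodendrocytes, and for quiescence of hippocampal stem cells.

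The libraries held 9724413 to 14092685 gene-assigned reads. Fgf13 was at 772 and 769 normalized read counts in control and at 5410 and 4447 with FGF13Aoe, so it was higher (by 2.67 log2 units, limma adjusted p = 0.00111), in the direction of the labels. Prm1, a sperm chromatin gene whose sequence is part of some Cre transgenes, went the other way, from 1040 and 722 to 9.67 and 10.1, and whether both groups carried the same Cre transgene was not tested. Markers of the labelled cell type were present in each library, with Vim at 36082 to 43038 and Sox2 at 1584 to 3812. They did not all keep their level. Sox2 was higher with FGF13Aoe. Nes was lower, at 11342 and 13805 in control against 2310 and 4006 (limma adjusted p = 0.00518). Of 8 neural progenitor markers 5 were called higher and 1 lower, while 16.2% of all tested genes were called higher and 19.1% lower. Libraries and groups differed in sex-linked transcripts. The Y-linked gene Ddx3y was at 4.95 and 146 in control and listed at 0 in both FGF13Aoe libraries, and Eif2s3y was at 7.92 and 274 against 1.21 and 0. Xist, expressed from the inactive X chromosome, was at 18658 and 12206 against 30159 and 31301 (limma adjusted p = 0.0284). The 2 controls thus differed in their share of male RNA, so they were not 2 wells of the same mouse. Control replicate 2 held the Y-linked transcripts as well as Xist, so its RNA was not that of 1 mouse alone. Y-linked RNA came mostly from control replicate 2, while Xist was lower in both controls than in either FGF13Aoe library. The part of these sex-linked differences in the results was not tested. The choroid plexus gene Ttr was at 1613 and 94.4 in the controls.

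Promoter windows were searched for sequences known to be bound by Smads, and 0 of the motifs searched was present in all of these genes. RefSeq windows of 300 bases (GRCm38.p6, 250 bases before to 50 after a transcript start) were searched for 8 of the 10 genes. No window of Id1 or Smad7 was searched, so whether these genes hold a motif was not tested. Windows of 5 genes are printed 5′ to 3′ on the strand of the gene: Bmp4, which had the largest rise of the 10, 3 of the Id genes, and Smad6. They lie at chr14:46390620-46390919 (minus strand) for Bmp4, chr12:25096043-25096342 (minus) for Id2, chr4:136143572-136143871 (plus) for Id3, chr13:48260866-48261165 (plus) for Id4 and chr9:64022010-64022309 (minus) for Smad6. Capitals mark GGCGCC, the GC-rich core of the BMP response element, and GTCTAGAC, a palindromic Smad-binding sequence.
Bmp4: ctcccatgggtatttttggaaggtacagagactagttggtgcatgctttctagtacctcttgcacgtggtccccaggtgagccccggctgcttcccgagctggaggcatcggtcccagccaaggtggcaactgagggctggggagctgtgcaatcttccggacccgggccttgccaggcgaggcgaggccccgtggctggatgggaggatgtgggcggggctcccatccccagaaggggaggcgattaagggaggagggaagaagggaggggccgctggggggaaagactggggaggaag
Id2: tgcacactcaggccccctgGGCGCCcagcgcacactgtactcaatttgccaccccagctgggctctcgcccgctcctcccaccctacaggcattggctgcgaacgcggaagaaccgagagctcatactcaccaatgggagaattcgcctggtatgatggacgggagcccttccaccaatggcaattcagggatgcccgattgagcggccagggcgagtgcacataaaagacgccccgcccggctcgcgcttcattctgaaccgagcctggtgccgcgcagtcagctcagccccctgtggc
Id3: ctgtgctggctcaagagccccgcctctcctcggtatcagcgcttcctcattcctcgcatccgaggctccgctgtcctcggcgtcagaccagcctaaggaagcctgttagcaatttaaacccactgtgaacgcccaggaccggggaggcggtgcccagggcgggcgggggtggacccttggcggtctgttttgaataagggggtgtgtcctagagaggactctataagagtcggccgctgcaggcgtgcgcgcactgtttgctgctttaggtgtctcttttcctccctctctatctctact
Id4: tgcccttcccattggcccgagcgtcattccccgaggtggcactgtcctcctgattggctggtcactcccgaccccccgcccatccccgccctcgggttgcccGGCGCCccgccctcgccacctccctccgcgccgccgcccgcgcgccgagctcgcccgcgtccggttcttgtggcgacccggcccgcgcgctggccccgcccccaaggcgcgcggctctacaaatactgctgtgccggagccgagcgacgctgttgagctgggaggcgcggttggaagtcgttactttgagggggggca
Smad6: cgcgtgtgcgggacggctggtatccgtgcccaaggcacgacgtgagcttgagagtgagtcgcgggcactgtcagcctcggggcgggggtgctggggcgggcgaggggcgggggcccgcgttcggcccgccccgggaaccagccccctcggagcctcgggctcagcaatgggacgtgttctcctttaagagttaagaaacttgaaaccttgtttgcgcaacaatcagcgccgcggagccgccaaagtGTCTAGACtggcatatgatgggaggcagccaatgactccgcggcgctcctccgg

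GGCGCC, whose letters are the same on both strands, was present in the windows of Bmpr1a, Id2 and Id4, 3 of the 8 genes, and in 11.9% of 32851 windows of all genes. GTCTAGAC, also the same on both strands, was present in the Smad6 window, from base 247, and in 0.213% of all windows. CAGACA, a Smad-binding sequence read as TGTCTG on the other strand, was present in 1 of the 3 Bmpr1b windows and in 21.0% of all windows. A longer motif was searched as well, on both strands: the GC-rich core followed, at a fixed spacing, by the opening letters of the palindromic sequence. It was present in 0 of the 10 windows of the 8 genes and in 0.0731% of all windows. A match is a description of letters and no evidence of binding. The G and C content of the windows ran from 48.3% in a Bmpr1b window to 79.3% in Bmpr1a, beside a median of 52.7% over all windows.

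In the FGF13Aoe neurospheres the ligand, both receptors, both inhibitory Smads, Atoh8 and 3 of the 4 Id genes were higher than in control. Of the 10 genes 9 were called higher and 0 lower (limma adjusted p under 0.05 over all 15204 genes tested), while 16.2% of all tested genes were called higher and 19.1% lower. Id4 did not pass. The median log2 change was 1.25 over the 10 genes and -0.01 over all tested genes. The 10 genes were chosen with earlier results of these data known, so neither the count nor the median tests them as a set. Both FGF13Aoe libraries lay above both controls in each of the 10, as they did in 36.2% of all tested genes. Smad6 passed the filter on low values through the FGF13Aoe libraries alone. In bulk RNA a change in the share of cells that express a gene and a change in RNA per cell cannot be told apart. With 1 control library left, which is then assumed to vary like the FGF13Aoe libraries, fewer passed: 5 without control replicate 1 (3.62% of all tested genes called higher) and 4 without control replicate 2 (5.06%). The count was 8 without FGF13Aoe replicate 1 (15.0%) and 9 without FGF13Aoe replicate 2 (18.6%). It was 10 with log2 values centred on their median (18.8%), 7 without an intensity trend (12.4%), where Id1 (adjusted p = 0.0576) and Smad7 (0.0597) did not pass, and 8 with a filter of 50 (18.4%), which leaves Smad6 untested. By edgeR on reads of 3 libraries, without control replicate 1, it was 5 (3.53%), namely Bmp4, Bmpr1b, Id3, Id4 and Atoh8. Bmp4, Bmpr1b, Id3 and Atoh8 passed in each of the 4 fits that left out a library.

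**Figure D1:**
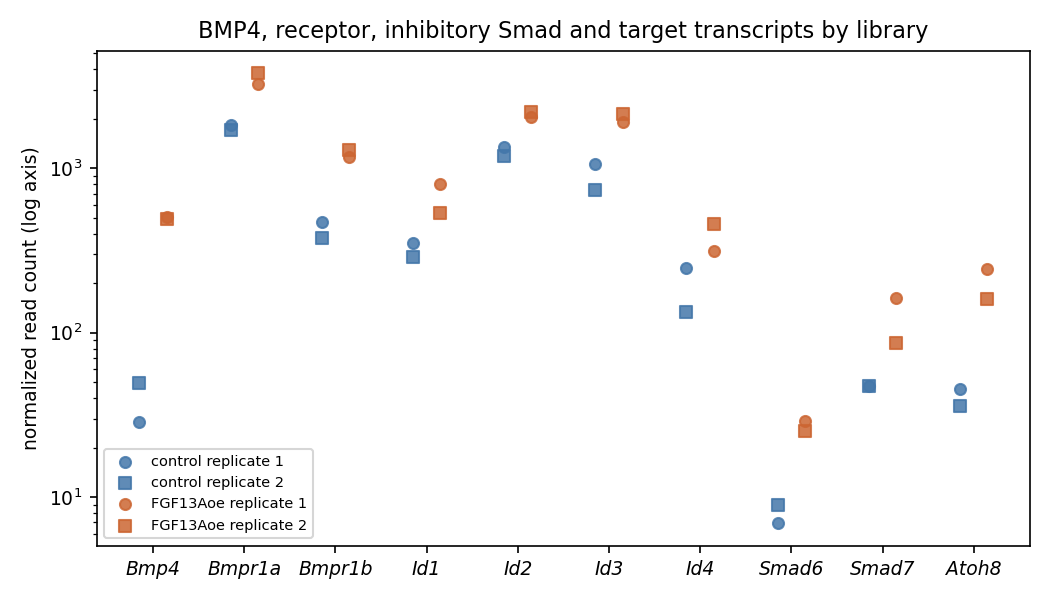
Normalized read count (log axis) of each of the 10 genes in 2 control libraries (blue) and 2 FGF13Aoe libraries (orange), with circles for replicate 1 and squares for replicate 2. The FGF13Aoe points lie above the control points for every gene, farthest for Bmp4 (506 and 488 against 28.7 and 49.6) and on this axis least for Id4, whose nearest libraries of the groups were at 314 and 246.

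Bmp4 (ENSMUSG00000021835, chromosome 14, 46383520 to 46390669, GRCm38) encodes the ligand. It had 28.7 and 49.6 normalized reads in control replicates 1 and 2 and 506 and 488 in FGF13Aoe replicates 1 and 2. The FGF13Aoe libraries were alike and the controls differed from each other more in proportion. The log2 change, on the scale of log2(normalized count + 1), was 3.68 ± 0.30 (SE, n = 2 per group; adjusted p = 0.00154), a 12.8-fold difference. Only 24 of the 15204 tested genes had a larger rise. Leaving out each library in turn gave log2 changes from 3.30 to 4.07, with adjusted p up to 0.0139.

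Bmpr1a and Bmpr1b encode type I receptor kinases that bind BMP4. Bmpr1a (ENSMUSG00000021796, chromosome 14, 34410734 to 34503341) was at 1834 and 1716 in control and 3249 and 3776 in FGF13Aoe. Bmpr1b (ENSMUSG00000052430, chromosome 3, 141837136 to 142169425) was at 474 and 374 against 1177 and 1286. In both genes the libraries of a group lay close together and the groups stood apart. The log2 change was 0.98 ± 0.13 for Bmpr1a (adjusted p = 0.00489) and 1.55 ± 0.16 for Bmpr1b (adjusted p = 0.00252; SE, n = 2 per group in both). Bmpr1a did not pass without control replicate 2 (0.93, adjusted p = 0.0538) or by edgeR on reads of 3 libraries (1.05, adjusted p = 0.0538). On the scale of normalized counts per kb of exon, levels summed over the type I receptor genes Bmpr1a, Bmpr1b and Acvr1 came to 446 and 412 in the controls, against 766 and 857 in FGF13Aoe. The share of Acvr1 in that sum was 17.6% and 19.2% in control and 7.51% and 5.41% in FGF13Aoe, and that of Bmpr1b 17.8% and 15.2% against 25.8% and 25.2%.

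The Id genes are the targets most used as a readout of BMP signalling. Id1 (ENSMUSG00000042745, chromosome 2, 152736251 to 152737410) was at 352 and 288 in control and 805 and 531 in FGF13Aoe, with the widest relative gap between FGF13Aoe libraries among Id1, Id2 and Id3. Id2 (ENSMUSG00000020644, chromosome 12, 25093799 to 25097140) was at 1351 and 1189 against 2044 and 2186. Id3 (ENSMUSG00000007872, chromosome 4, 136143497 to 136145755) was at 1055 and 737 against 1911 and 2140. Groups did not overlap in any of these genes. Log2 changes were 1.04 ± 0.23 for Id1 (adjusted p = 0.021), 0.74 ± 0.12 for Id2 (adjusted p = 0.00905) and 1.20 ± 0.19 for Id3 (adjusted p = 0.00814; SE, n = 2 per group). Id1 and Id2 did not pass without control replicate 1 (adjusted p = 0.0718 and 0.062) or without control replicate 2 (0.1174 and 0.0969), while Id3 did, at 0.0226 and 0.046.

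Id4 (ENSMUSG00000021379, chromosome 13, 48261228 to 48266026) encodes the family member best known for holding adult hippocampal stem cells in quiescence in the mouse. It was at 246 and 134 in the controls, against 314 and 456 in FGF13Aoe. Both groups were spread widely, and the log2 change of 1.06 ± 0.34 (SE, n = 2 per group) did not pass (limma adjusted p = 0.0565). In the authors' deposited table Id4 has an adjusted p of 0.0152. Genes on the opposite strand overlap 4.57% of the exonic bases of Bmpr1a, 3.96% of those of Bmp4 and 4.44% of those of Id4. It passed without FGF13Aoe replicate 1 (1.32, adjusted p = 0.0492) and with log2 values centred on their median (1.13, adjusted p = 0.0474), and without control replicate 2 its log2 change was 0.62 (adjusted p = 0.2368).

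Per kb of exon, the summed level of the 4 Id genes was 1510 and 1182 in control and 2681 and 2668 in FGF13Aoe. The share of Id3 in the sum was 39.0% and 34.8% in control and 39.8% and 44.8% in FGF13Aoe, and that of Id2 36.7% and 41.2% against 31.3% and 33.6%. Id1 made up 20.1% and 21.0% against 25.9% and 17.2%, and Id4 at most 4.44% in any library. The shares of Id2 were lower in both FGF13Aoe libraries than in either control and those of Id3 higher, while the shares of Id1 and Id4 overlapped between groups.

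Smad6 and Smad7 encode inhibitory Smads that block activated receptors, SMAD6 mainly those of BMPs and SMAD7 those of BMPs and TGF-beta. Smad6 (ENSMUSG00000036867, chromosome 9, 63953076 to 64022059) was scarce, at 6.93 and 8.95 in control and 29.0 and 25.3 in FGF13Aoe, which came from 7, 11, 24 and 25 reads. Smad7 (ENSMUSG00000025880, chromosome 18, 75367529 to 75395935) was at 47.5 and 47.2 in control and 162 and 86.0 in FGF13Aoe. Its controls were nearly equal and FGF13Aoe replicate 1 was well above replicate 2. Log2 changes were 1.66 ± 0.40 for Smad6 (adjusted p = 0.0258) and 1.30 ± 0.35 for Smad7 (adjusted p = 0.0367; SE, n = 2 per group). Neither passed without control replicate 1 (adjusted p = 0.1328 and 0.1476), control replicate 2 (0.0895 and 0.1461) or FGF13Aoe replicate 1 (0.0688 and 0.0815), where Smad7 had a log2 change of 0.85. In the authors' deposited table Smad6 has an adjusted p of 0.0851 and Smad7 of 0.0105.

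Atoh8 (ENSMUSG00000037621, chromosome 6, 72206177 to 72235577) encodes a basic helix-loop-helix transcription factor and is a known BMP target in liver and endothelium. It was at 45.6 and 35.8 in control and 243 and 160 in FGF13Aoe. Controls were close to each other, the FGF13Aoe libraries were farther apart, and the groups did not overlap. The log2 change was 2.26 ± 0.30 (SE, n = 2 per group; adjusted p = 0.00492), 4.79-fold, the second largest of the 10 genes, and it ran from 1.96 to 2.56 with each library left out.

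**Figure D2:**
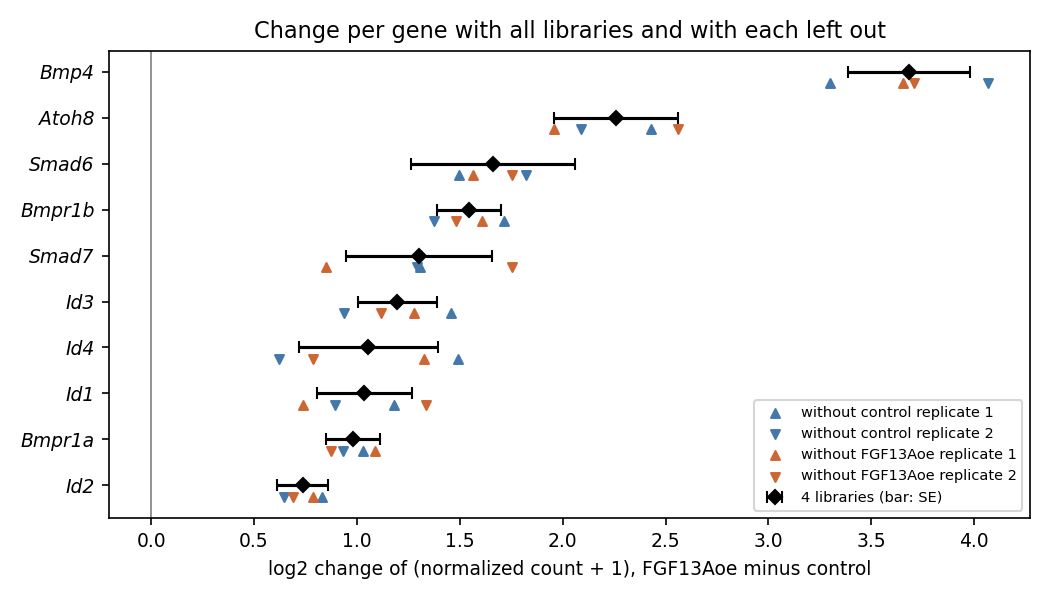
Log2 change of each gene, FGF13Aoe minus control, with all 4 libraries (black diamond, bar for the SE) and with each library left out (triangles). Every value lies above 0, Bmp4 stands apart at 3.68, and Id4 moves most in relation to its size, from 0.62 to 1.49.

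Levels were compared between genes per kb of exon. In control the order by group mean was Id2 (521), Id3 (500), Bmpr1a (279), Id1 (276), Bmpr1b (71.1), Id4 (49.4), Bmp4 (17.4), Atoh8 (16.2), Smad7 (10.5) and Smad6 (2.48). Libraries overlapped between Id2 and Id3, between Bmpr1a and Id1, between Bmpr1b and Id4, and between Bmp4 and Atoh8. In FGF13Aoe the order was Id3 (1131), Id2 (868), Id1 (576), Bmpr1a (553), Bmp4 (221), Bmpr1b (207), Id4 (100.1), Atoh8 (80.3), Smad7 (27.4) and Smad6 (8.47). Id1 overlapped with Bmpr1a there and Id4 with Atoh8. Bmp4 thus moved from below Bmpr1b and Id4 in control to above both, in each library.

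The rise of Bmp4 went with a fall of Bmp7, the most abundant BMP ligand transcript of the control cultures. Bmp7 was at 1291 and 1196 in control and 226 and 149 in FGF13Aoe, a log2 difference of -2.75 ± 0.22 (SE over 2 libraries per group, limma adjusted p = 0.00149). Per kb of exon Bmp7 was 25.1 and 13.5 times as abundant as Bmp4 in the control libraries, and Bmp4 was 4.01 and 5.86 times as abundant as Bmp7 in the FGF13Aoe libraries. Summed over Bmp4 and 9 other BMP ligand genes, the level per kb was 350.1 and 335 in control and 303 and 264 in FGF13Aoe. The sum was therefore lower in both FGF13Aoe libraries than in either control, while its largest part was Bmp7 (91.7% and 88.8%) in control and Bmp4 (74.4% and 82.1%) in FGF13Aoe. A test of the summed level was not made.

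**Figure D3:**
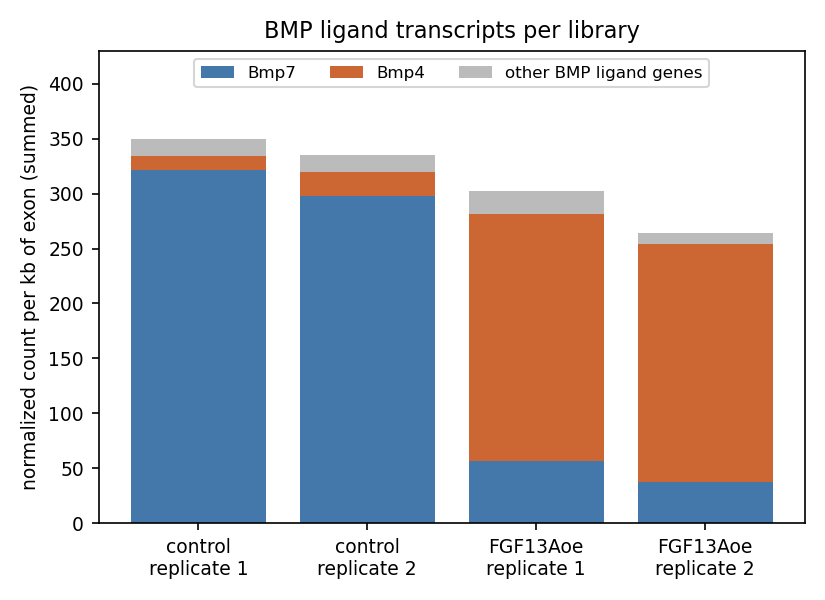
Normalized count per kb of exon, stacked for Bmp7 (blue), Bmp4 (orange) and the other BMP ligand genes (grey) in each of the 4 libraries. Bmp7 fills most of the control bars and Bmp4 most of the FGF13Aoe bars, and the bars end at 350.1, 335, 303 and 264.

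Beyond the 10 genes, 109 others of the BMP pathway, of the ID partners and of the TGF-beta branch were listed, and 87 passed the filter. Of these 17 were called higher and 21 lower, 19.5% and 24.1%, near the 16.2% and 19.1% of all tested genes, with a median log2 change of -0.06. Without control replicate 1 the counts were 6 and 10 (3.62% and 5.7% of all tested genes) and without control replicate 2 they were 5 and 11 (5.06% and 6.41%). Without FGF13Aoe replicate 1 they were 14 and 26 (15.0% and 20.2%), without FGF13Aoe replicate 2 25 and 23 (18.6% and 22.7%), and by edgeR on reads of 3 libraries 5 and 11 (3.53% and 7.14%). With a filter of 50, under which fewer genes were tested, 13 were lower (20.7%). Of the 38 called genes 12 passed in each of the 4 fits with a library left out, among them Bmp7, Gdf10, Fstl5, Tll1, Neurod1, Neurod2, Neurod6, Nhlh2, Neurog2, Hes5 and Ltbp3. The other calls ended without control replicate 1, control replicate 2 or both: 23 without the first, with adjusted p from 0.0532 to 0.312, and 22 without the second, from 0.0515 to 0.225. Directions were the same in each fit.

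Of 16 other genes of the BMP and GDF families 8 were tested, with a median log2 change of -0.89. Of these 2 fell and 0 rose, while 19.1% of all tested genes fell and 16.2% rose. This list holds Bmp1, which encodes a protease and no ligand and had a log2 change of 0.03. Without it 7 of 15 were tested, and the median was that of Bmp2, -1.76 ± 0.98, which did not pass. Besides Bmp7 this was Gdf10, at 65.4 and 42.3 in control against 4.83 and 5.06 in FGF13Aoe (-3.17 ± 0.41 on the log2 scale, adjusted p = 0.00473). Gdf10 and 1 other ligand gene passed the filter through the control libraries alone.

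Receptor and co-receptor genes went both ways: of 9 tested 2 rose and 4 fell, with a median of -0.02. The shares over all tested genes were 16.2% higher and 19.1% lower. Rgma, a membrane-anchored BMP co-receptor, was at 2001 and 1734 against 3441 and 4347 and rose by 1.05 ± 0.16 (log2, adjusted p = 0.0069). Its relative Rgmb fell from 492 and 377 to 217 and 144 (-1.28 ± 0.25, adjusted p = 0.0147). Among type II receptors, which activins also use, Acvr2b rose (1.40 ± 0.25) and Acvr2a fell (-0.90 ± 0.17). The main BMP type II receptor gene, Bmpr2, named here after its values were seen, was at 1969 and 1956 against 1973 and 1902 (-0.02 ± 0.11, adjusted p = 0.9055). The type I receptor gene Acvr1 (-0.61 ± 0.17) and the co-receptor gene Eng (-1.91 ± 0.42) fell. With median centring, without the trend, with a replicate block or in the authors' deposited table Acvr1 did not pass (adjusted p = 0.0528, 0.0699, 0.0574 and 0.0581), and in the authors' deposited table neither did Eng (0.0718). Eng passed the filter through the control libraries alone, and 7.84% of the exonic bases of Acvr2a overlap Orc4 on the opposite strand.

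Of 14 genes of Smad transducers and their regulators 4 rose and 0 fell, with a median of 0.11. Over all tested genes 16.2% were called higher and 19.1% lower. Smad4, the shared partner of BMP and TGF-beta Smads, was at 808 and 804 in control against 1213 and 1180 in FGF13Aoe, a rise of 0.57 ± 0.11 (log2, adjusted p = 0.0137). Smad1 and Smad9, which encode Smads phosphorylated by BMP receptors, rose by 0.45 ± 0.13 and 1.20 ± 0.32. Skil, whose product represses Smad complexes, rose by 0.63 ± 0.15. Without the trend Smad1, Smad9 and Skil did not pass (adjusted p = 0.1051, 0.0577 and 0.0638), nor did Smad1 without a filter (0.0744), with a replicate block (0.0828) or in the authors' deposited table (0.0942).

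Secreted antagonists and modulators were divided. Of 15 tested 3 rose and 6 fell, with a median of -0.56, and 4 passed the filter through the control libraries alone. Over all tested genes 16.2% rose and 19.1% fell. Nog, which encodes the BMP4 trap noggin, was at 19.8 and 18.7 in control against 61.6 and 58.7 in FGF13Aoe, with libraries of each group almost equal, and rose by 1.59 ± 0.30 (log2, adjusted p = 0.0129). Chrd, for the antagonist chordin, rose by 1.33 ± 0.26 and Nbl1 by 0.85 ± 0.22. Tll1, for a protease that cleaves chordin and so is no antagonist, had 74 reads in control and 3 in FGF13Aoe, a control to FGF13Aoe ratio of 20.0 (95% counting interval 6.58 to 99.2, which covers counting error only). Fstl5 fell from 182 and 145 to 29.0 and 29.4 (-2.44 ± 0.26, adjusted p = 0.00282). Among the others that fell were the antagonist genes Chrdl1 (-0.85 ± 0.24), Grem1 (-1.61 ± 0.49) and Sostdc1, which had 33 reads in control and 2 in FGF13Aoe. Nbl1 and Chrdl1 did not pass without the trend (adjusted p = 0.0835 and 0.0777). Grem1 did not pass with pseudocount 0.5, without a filter, with TMM scaling, with median centring, with a replicate block or in the authors' deposited table (adjusted p from 0.0503 to 0.2314).

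Of 15 other tested genes used as BMP targets 3 rose (Hey1, Nog and Smad9), 2 fell (Dlx5 and Lmo4) and 10 did not pass, with a median of 0.01, while 16.2% of all tested genes rose and 19.1% fell. Hey1, also a Notch effector, was at 596 and 730 against 1103 and 1193, a rise of 0.80 ± 0.14 (log2, adjusted p = 0.0111). Dlx5, an interneuron transcription factor in forebrain, was at 54.5 and 28.5 against 2.42 and 5.06 (-3.15 ± 0.54, adjusted p = 0.00967), and passed the filter through the control libraries alone. Lmo4 did not pass without the trend (adjusted p = 0.0717).

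Among 14 tested genes of E proteins and other basic helix-loop-helix factors, 6 rose and 4 fell, with a median of 0.09. Over all tested genes 16.2% rose and 19.1% fell. Neurod6, Nhlh2, Neurod2 and Neurod1, factors of differentiating neurons, fell, with log2 changes of -4.75 ± 0.30, -3.91 ± 0.41, -3.41 ± 0.47 and -2.90 ± 0.37. Tcf3 and Tcf12, which encode E proteins that ID proteins bind, rose by 0.59 ± 0.14 and 0.61 ± 0.14, though not without the trend (adjusted p = 0.0706 and 0.0598). Tcf4, the remaining E protein gene of the list, was at 8879 and 6986 against 7606 and 8590 and did not pass (log2 change 0.04 ± 0.18, adjusted p = 0.882). The neuronal factor gene Nhlh1 rose by 1.78 ± 0.44. Neurog2 and Hes5 rose by 3.20 ± 0.57 and 3.57 ± 0.63. Tcf3, Tcf12, Tcf4, Nhlh1, Neurog2 and Hes5 were named after their values were seen. Neurog2, a proneural factor upstream of Neurod1 in the cortex, was at 42.6 and 13.8 in control and 175 and 309 in FGF13Aoe. Exons of Hes5 share 31.8% of their bases with a predicted antisense gene, and those of Neurod1 13.0% with other genes. In the TGF-beta and activin branch 1 of 15 tested genes rose and 3 fell (16.2% and 19.1% of all tested genes), with a median of -0.01. The risen gene was Ltbp3 (1.31 ± 0.19), which encodes a binding protein of latent TGF-beta. Tgfbr2 (-1.45 ± 0.20) and Smad2 (-0.48 ± 0.13) fell, and Inhba had 46 reads in control and 2 in FGF13Aoe (ratio 18.7, 95% counting interval 4.88 to 159). Inhba passed the filter through the control libraries alone. Smad2 did not pass without a filter, with median centring, without the trend, with a replicate block or in the authors' deposited table (adjusted p from 0.0522 to 0.0717).

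**Figure D4:**
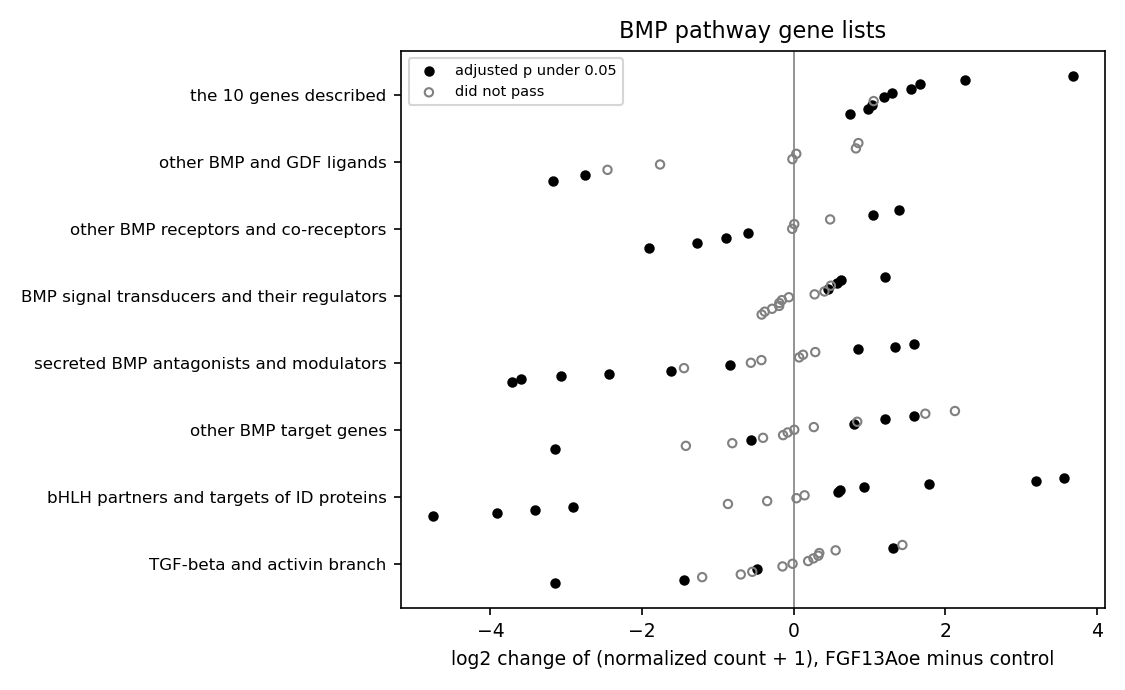
Log2 change, FGF13Aoe minus control, of each tested gene by list, with filled points for limma adjusted p under 0.05 and open points for genes that did not pass. The 10 genes described lie above 0, while each of the other lists lies on both sides of 0. All lists were chosen with earlier results of these data known, so this contrast is no test.

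Markers of several cell types moved with the 10 genes, and their part in these results was not tested. Over all tested genes 16.2% were called higher and 19.1% lower. Of 8 astrocyte markers 4 rose, 0 fell and 4 did not pass. Their summed normalized count was 52333 to 73838 in control and 181193 to 200117 in FGF13Aoe. Most of that rise was Gfap, at 30384 and 12876 against 111437 and 135769. Of 8 oligodendrocyte lineage markers 4 rose and 0 fell, with sums of 22366 to 27159 against 41962 to 47112. Of 8 neuron markers 7 fell and 0 rose, with sums of 30991 to 39728 against 10165 to 13032. Of 8 neural progenitor markers 5 rose and 1 fell, with sums of 70500 to 76526 against 59806 to 73725. Endothelial cells also use Id1, Id3, Smad6 and Atoh8: of 8 endothelial markers 3 were tested and 0 called, with sums of 172 to 223 against 130 to 251. The tested ones were Kdr (48.5 and 19.5 against 43.5 and 73.9), Flt1 (33.7 and 116 against 187 and 44.5) and Pecam1 (31.7 and 13.0 against 8.46 and 8.10), and Cdh5, not tested, was at 33.7 and 6.51 against 1.21 and 1.01. Meningeal fibroblast markers, of which 5 were tested, gave 0 higher and 3 lower, with sums of 340 to 630 against 112 to 157. Pericyte markers gave 1 higher and 1 lower of 5 tested (540 to 674 against 202 to 277), choroid plexus markers 0 and 1 of 3 (163 to 1733 against 72.5 to 164), ependymal markers 0 and 1 of 5 (634 to 713 against 507 to 668) and microglia markers 0 and 2 of 6 (174 to 401 against 59.2 to 115). The called pericyte marker that was higher, Myh11, passed the filter through the FGF13Aoe libraries alone, and the called choroid plexus and ependymal markers, Otx2 and Ccdc153, and the meningeal marker Dcn through the control libraries alone. Red blood cell markers summed to at most 8.95 in any library, and 0 were tested.

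Genes with profiles over the 4 libraries most like those of Bmp4 and Id3 were sought among 10877 others with a mean of at least 100. Likeness was the root mean square difference of log2 values, each gene centred on its own mean. Among the 3 nearest to Bmp4 were Fa2h (0.20), an enzyme gene of myelin lipid synthesis, and Ntsr2 (0.21), a receptor gene of astrocytes. Nearest to Id3, the Id gene with the smallest p, were Fam227a (0.06), Pygb (0.07), the brain glycogen phosphorylase gene, and 2810459M11Rik (0.08). With 4 libraries this is a description and carries no test.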

How the data were processed

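The authors deposited a table with a normalized signal per gene and library, which behaves as reads over a library's own size factor, per the file headers and values. It also holds their log2 fold changes, Wald scores, p-values and adjusted p-values as deposited. STAR, DESeq2 and mm10 are named in the submitters' processing notes. Versions, annotation and strand use were not given in the sources used here. Values in each library were 100% whole multiples of a step (tolerance 1e-06), which gave reads. The step of control replicate 1 was 0.991, close to 1, and edgeR was run on the other 3 libraries. FGF13Aoe replicate 2, with a step of 1.01, was kept, so closeness to 1 does not set control replicate 1 apart. EdgeR was thus left with 1 control library. Reads given for single genes include those of control replicate 1.

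The filter kept 15204 genes that reached a normalized count of 10 in 2 or more libraries. They were compared by limma 3.58.1 (R 4.3.3) with an intensity trend on log2(normalized count + 1), two-sided, adjusted after Benjamini and Hochberg, with calls at 0.05. This scale understates changes of low genes. The count tests used edgeR 4.0.16. The procedure was run on simulated reads with few changed genes and the same relative spread for every gene. That setting differs from these data, so it does not test the calls made here. Positions, exon lengths and overlaps came from GENCODE M21 (GRCm38, the assembly of mm10), promoter windows from RefSeq. Figures used matplotlib 3.10.9. Groups and replicate numbers came from titles.

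Members and lists were chosen with earlier results of these data known. Named were the 10 genes, Fgf13, up to 5 called genes with the smallest p per pathway list with those a small count needs, marker genes, and the genes nearest in profile. Not all genes taken by that rule are reported here. Prm1, Nes, Bmpr2, Neurog2, Hes5, Tcf3, Tcf12, Tcf4, Nhlh1, Bmp1, Bmp2 and the sex-linked genes were named after their values were seen. Alternatives were other pseudocounts, filters and scalings, no trend, the authors' p-values, each library left out, and a replicate block.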

Additional observations from a re-analysis of the deposited data

How the results depend on the processing

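Of the 10 genes, 9 were called higher, and all kept their direction under every alternative run. Leaving out each library gave 4 to 9 of the 10 genes higher, 551 to 2822 higher and 867 to 3447 lower among all genes, and 5 to 25 higher and 10 to 26 lower among other pathway genes, lowest without a control library. EdgeR on reads of 3 libraries, added after the data were seen and without control replicate 1, called 537 genes higher and 1086 lower, 5 of the 10 genes higher, and 5 and 11 of the other pathway genes. Among other pathway genes 11 were higher without the intensity trend, against 17, and 13 lower with the filter of 50, against 21, since fewer genes were then tested.

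Nothing in the labels ties replicates of the same number beyond that number. Differences between replicates correlated at -0.1031 across genes between groups. With so few libraries this cannot decide whether replicates of the same number shared a day or batch. With a replicate block 2049 genes were higher and 2647 lower, and 17 and 22 of the other pathway genes. A crossed pairing, added for that correlation, gave 2816 and 3257.

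Depth limits Smad6, with 7 to 25 reads per library.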
